A study of Mus musculus with 5 samples.

Results

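The genes described here are 10 genes of the circadian clock and its immediate output, measured in RNA labelled as lung of A/J mice, an inbred strain used in studies of allergic airway disease. They are Arntl (also called Bmal1), Clock, Per1, Per2, Per3, Cry1, Nr1d1, Nr1d2, Dbp and Tef. They were selected by gene symbol in the platform annotation, from a list proposed with the intensities of these same arrays already known, so their levels by title number and by treatment are a description and carry no test. The 10 genes, of 8251 named on the arrays, have 12 of the 12422 probe sets, a probe set being the set of short DNA probes that reads one transcript. Of these 12, 10 exceeded an intensity of 210 on at least 2 arrays, with 1 probe set for each gene, and the remaining 2 are dim probe sets of Cry1.

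The series has 5 arrays. On 2 of them the mice had received saline into the trachea, with the title numbers 6 and 48. On the other 3 they had received IL-13, a cytokine of T helper 2 cells known to act on the airway lining, by the same route, with the title numbers 6, 18 and 48. No unit is given for these numbers, and the labels name neither the hour of day at which tissue was taken nor the age, the sex or the number of animals behind an array. Saline has no array of number 18, and every other pairing of a treatment with a number has 1 array, so each condition is a single value with no spread of its own, and no order among the 5 conditions can be set against a spread within them. The spread given below as SD is that between arrays of unlike condition. Nothing says that arrays come from separate animals, so a p-value here reflects the spread among these 5 arrays alone.

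The circadian clock is a loop of transcription factors that runs in most cells with a period of about a day. The proteins CLOCK and BMAL1 (from Arntl) pair and activate genes that carry an E-box, among them the Per and Cry genes, whose proteins return to the nucleus and repress CLOCK and BMAL1. In a second loop the nuclear receptors REV-ERB alpha and beta, encoded by Nr1d1 and Nr1d2, repress Arntl. DBP and TEF are transcription factors of the PAR bZIP family that are driven by the loop and bind a D-box in their own targets, which include Per genes. In mouse tissues Arntl transcripts peak at nearly the opposite time of day from Dbp and Per transcripts, and lung and airway epithelium have a clock of this kind.

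The tissue was checked by marker genes. Scgb1a1, the secretory protein of airway club cells, read between 22024 and 31024 on all 5 arrays. The surfactant protein gene Sftpc of alveolar type II cells read 194.3 on saline 48, 257.2 on IL-13 6 and 300.5 on IL-13 48, but 2615 on saline 6 and as much as 17178 on IL-13 18. Of the 9 lung markers listed, 5 were on the array. Sftpb read 92.42 on saline 48, 86.34 on IL-13 6 and 67.59 on IL-13 48, but 231.8 on saline 6 and 2114 on IL-13 18. Sftpd read between 121.1 and 217.1, and Ager between 1872 and 4928. None of the 5 read 0, which alone does not show that a gene was expressed. Thyroglobulin, Tg, which is made by the thyroid, was bright on every array (13170 to 25516). The fat genes Ucp1 (6896 to 16459) and Adipoq (4289 to 9744) and the skeletal muscle genes Acta1 (11569 to 26556) and Myh4 (10039 to 18668) were bright on all 5 arrays too. The samples thus held RNA of thyroid, fat and muscle genes besides that of some lung markers, and Sftpc and Sftpb were low on 3 of the 5 arrays. How much of the RNA came from lung was not tested. The 3 fat markers on the array summed to 27802 on saline 6 and to between 12270 and 14977 elsewhere. The array saline 6 stood apart: the 7 salivary gland markers summed to 101026 there and to between 574 and 889 on the other 4. The 5 heart atrium markers summed to 19174 on saline 6, 9366 on IL-13 18 and at most 1581 elsewhere. Its correlations with the other arrays were the lowest, with Pearson's r of 0.913 to 0.923 across tested probe sets.

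Promoter windows of RefSeq (build GRCm38.p6, from 250 bases before to 50 bases after an annotated transcript start) were at hand for 9 of the 10 genes, all but Per2, in 14 windows. They were searched on both strands for CACGTG (the E-box of CLOCK and BMAL1), CACGTT (a weaker form, the E-prime box), TTATGNAA (the D-box of DBP and TEF) and TAGGTCA or TGGGTCA (an element of ROR and REV-ERB receptors). No 2 of the matches found overlap each other. The stretches of Per1, Per3, Cry1 and Tef are shown because they carry an E-box or a D-box, which protein products of other members bind. That of Nr1d1, with an E-prime box alone, is not shown. Matched letters are in capitals. Each stretch shown is upstream of the annotated start and written 5′ to 3′ on the strand of the gene. Per1 lies at chr11:69098773-69098942 on the plus strand and Tef at chr15:81802526-81802645 on the plus strand, Per3 at chr4:151044771-151044890 on the minus strand and Cry1 at chr10:85185055-85185174 on the minus strand.
Per1: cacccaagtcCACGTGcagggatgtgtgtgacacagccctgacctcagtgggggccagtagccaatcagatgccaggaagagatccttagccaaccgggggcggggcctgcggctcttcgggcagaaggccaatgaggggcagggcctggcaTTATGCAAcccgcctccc
Per3: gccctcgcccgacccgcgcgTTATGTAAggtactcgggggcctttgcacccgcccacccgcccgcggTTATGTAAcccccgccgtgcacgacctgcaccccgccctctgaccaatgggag
Cry1: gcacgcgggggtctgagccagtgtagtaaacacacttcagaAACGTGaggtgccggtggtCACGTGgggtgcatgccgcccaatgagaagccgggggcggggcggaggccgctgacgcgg
Tef: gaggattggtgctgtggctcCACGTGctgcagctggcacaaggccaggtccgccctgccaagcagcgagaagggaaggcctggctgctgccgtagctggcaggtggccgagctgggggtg

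Per1 has an E-box at position -166 and a D-box at position -24 from the start of 1 window, and its other window holds no match. Per3 has no E-box in its window and 2 D-boxes, at -205 and -158. Cry1 has an E-box at -60 and an E-prime box at -79. Tef has an E-box in each of its 2 windows, at -127 and -138 from the respective start. By gene, the E-box was found in 3 of 9 members (33.3%) and in 8.09% of all 27025 genes with a window. The D-box was found in 2 of 9 (22.2%, against 3.99% of all genes) and the E-prime box in 2 of 9, Cry1 and Nr1d1 (against 5.44%). The ROR and REV-ERB element was found in 1 of 9, in a window of Arntl at 31 bases after the start (against 7.35%). No match to any of the letters lay in the windows of Clock, Nr1d2 or Dbp, which says only that these letters are not in those stretches. A match is a description of sequence and shows no binding.

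**Figure D1:**
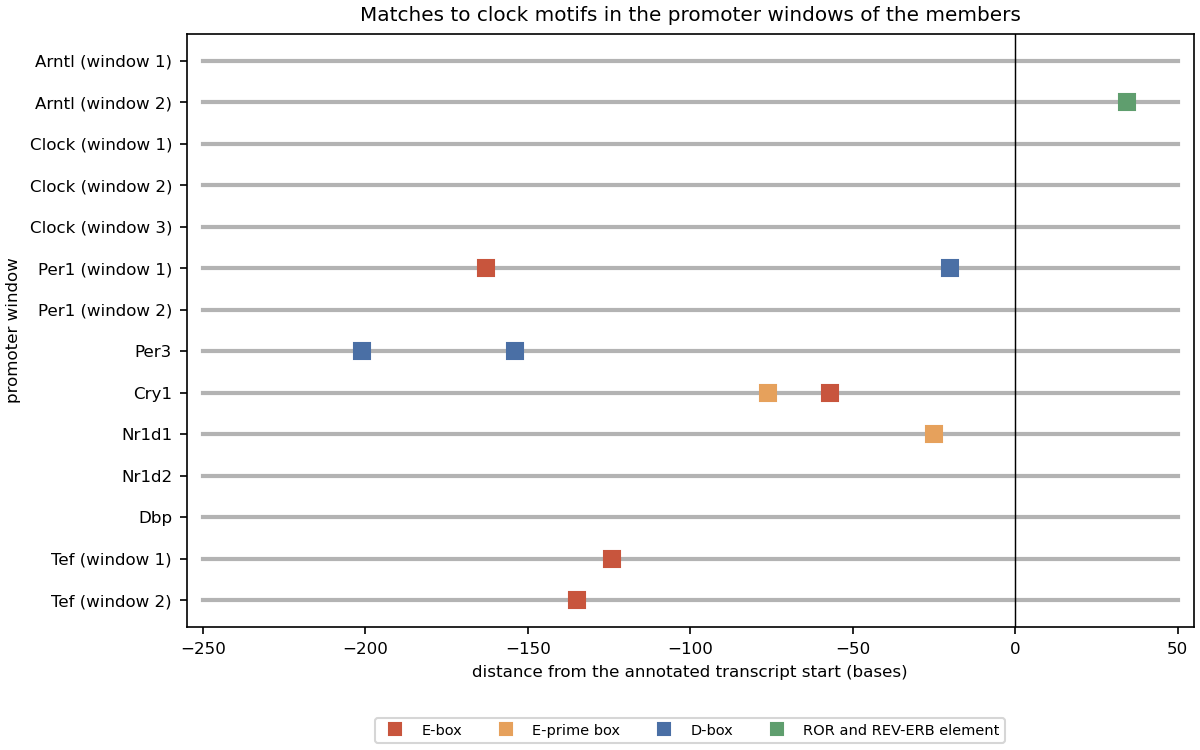
Positions of motif matches (squares, coloured by motif) along the 14 promoter windows of 9 clock genes. The horizontal axis is the distance in bases from the annotated transcript start, and each grey line is one window of 300 bases. Per1 and Tef show an E-box and Per3 a pair of D-boxes upstream of the start.

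The clearest feature of the clock genes was a division of the arrays by title number, with saline 6 and IL-13 6 on one side and saline 48, IL-13 18 and IL-13 48 on the other. The activator gene Arntl was low on both arrays of number 6, the Per genes, Cry1, Nr1d2, Dbp and Tef were high there, and Nr1d1 did not follow the division. Both arrays of number 6 lay above the other 3 for 7 of the 10 probe sets and below for 2, and they overlapped for 1. Over all 7811 tested probe sets 11.0% lay above and 15.8% below in this way. The members were chosen with these values known, so nothing is read from their count. In RNA of whole tissue, a change in the number of cells of a type and a change in RNA per cell cannot be told apart.

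**Figure D2:**
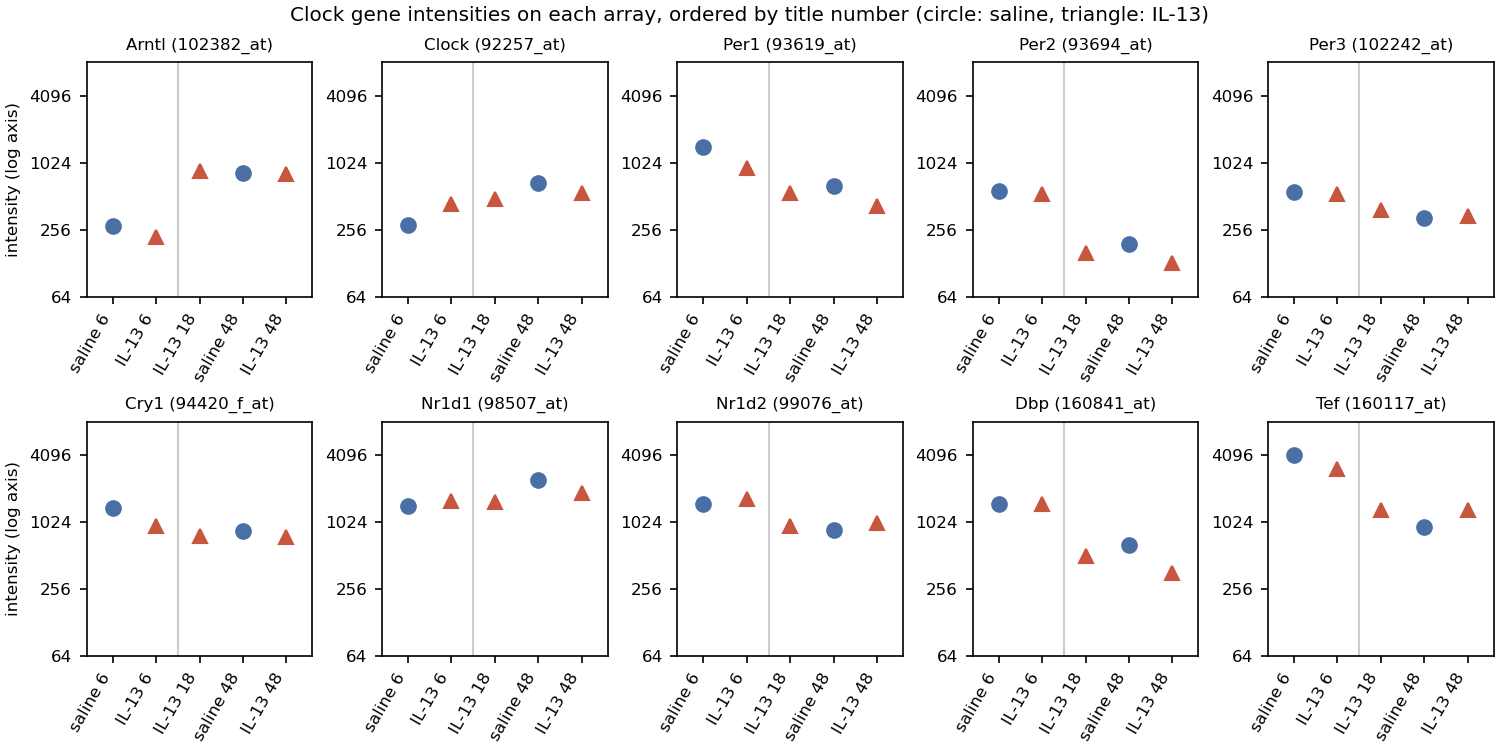
Intensity (log axis) of the 10 tested clock gene probe sets on each of the 5 arrays, ordered by title number, with circles for saline and triangles for IL-13. The vertical line separates title number 6 from the later numbers; Arntl lies low and Per2, Dbp and Tef lie high to its left.

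Among the activators, Arntl (probe set 102382_at), which encodes BMAL1, read 279.1 on saline 6 and 218.8 on IL-13 6. On the later arrays it read 828.2 (saline 48), 855.1 (IL-13 18) and 807.2 (IL-13 48). The 3 later arrays were within 1.06-fold of each other, and the nearest arrays across the division were 2.89-fold apart. Mean log2 intensity was 7.95 ± 0.25 (SD, n = 2) on number 6 and 9.70 ± 0.04 (SD, n = 3) on the later arrays, a difference of -1.75. This was the largest decrease on number 6 among the members.

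Clock (92257_at), the partner of BMAL1, moved less and less evenly. It read 282.9 on saline 6 and 439.7 on IL-13 6, then 671.4 on saline 48, 488.8 on IL-13 18 and 553.3 on IL-13 48. Both arrays of number 6 were the lowest, but IL-13 6 was only 1.11-fold below IL-13 18. The log2 difference was -0.68, and it was -0.36 without saline 6. That is the array with high salivary gland and atrial markers, whose part in the value was not tested.

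The repressor genes went the other way. Per2 (93694_at) read 573.4 and 542.2 on saline 6 and IL-13 6, and 189.4, 159.6 and 129.4 on saline 48, IL-13 18 and IL-13 48. The arrays of number 6 were within 1.06-fold of each other and at least 2.86-fold above any later array. Mean log2 intensity was 9.12 ± 0.06 (SD, n = 2) against 7.30 ± 0.28 (SD, n = 3), a difference of 1.82, the largest increase among the members. The later values lie under the intensity of 210 used as the filter, and with values below that set to it the difference was 1.41.

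Per1 (93619_at), which besides its place in the clock is induced by glucocorticoids and cyclic AMP, read 1414 on saline 6 and 926.1 on IL-13 6. Its later values were 627.0 on saline 48, 553.7 on IL-13 18 and 415.3 on IL-13 48. Its groups did not overlap, with the nearest arrays 1.48-fold apart, and the log2 difference was 1.13. Unlike Per2, the arrays of number 6 themselves differed 1.53-fold, about as much as the later arrays did (1.51-fold).

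Per3 (102242_at), a Per paralog that the core loop can do without, had a smaller and even difference. It read 554.6 and 538.8 on the arrays of number 6 and 328.6 (saline 48), 387.9 (IL-13 18) and 339.5 (IL-13 48) later. The log2 difference was 0.64, from 9.10 ± 0.03 (SD, n = 2) to 8.46 ± 0.13 (SD, n = 3), and the groups did not overlap.

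Cry1, the cryptochrome that gives the repressor complex its strength, has 3 probe sets. The bright one, 94420_f_at, read 1374 on saline 6 and 940.0 on IL-13 6, against 855.0 on saline 48, 765.6 on IL-13 18 and 743.6 on IL-13 48. Both arrays of number 6 were the higher, but IL-13 6 exceeded saline 48 by only 1.10-fold, and the log2 difference of 0.53 became 0.26 without saline 6 and 0.81 without IL-13 6. Its ending f marks probes that related transcripts may share. The other probe sets of Cry1 were dim on every array, 161225_r_at between 0.6215 and 10.26 and 94421_r_at between 3.597 and 18.71, and give no fold.

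The REV-ERB genes differed from each other. Nr1d2 (99076_at) read 1496 and 1659 on saline 6 and IL-13 6 and 870.9, 949.6 and 999.1 on saline 48, IL-13 18 and IL-13 48. Its groups did not overlap, its log2 difference was 0.75, and the arrays within each side were within 1.15-fold. Nr1d1 (98507_at) read 1425 and 1587 on the arrays of number 6, which lay on either side of IL-13 18 (1543), while saline 48 (2456) and IL-13 48 (1874) were higher. Its log2 difference of -0.35 has the opposite sign to that of Nr1d2, and it is the single member whose groups overlapped. The difference between the paralogs was not tested.

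Of the output factors, Dbp (160841_at) read 1492 and 1500 on saline 6 and IL-13 6, within 1.00-fold of each other, and 639.3, 506.3 and 360.4 on saline 48, IL-13 18 and IL-13 48. Mean log2 intensity was 10.55 ± 0.00 (SD, n = 2) against 8.93 ± 0.42 (SD, n = 3), a difference of 1.62. Tef (160117_at), the related PAR bZIP factor, read 4076 and 3082 on the arrays of number 6 and 918.4, 1326 and 1324 on saline 48, IL-13 18 and IL-13 48, a log2 difference of 1.60. The nearest arrays across the division were 2.34-fold apart for Dbp and 2.33-fold for Tef. The later arrays were ordered differently for the 2 genes: saline 48 was the highest of the 3 for Dbp and the lowest for Tef.

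A gap of at least 2-fold between the nearest arrays of the 2 sides was rare. Over all 7811 tested probe sets, 10 had it with number 6 above (0.128%) and 7 with number 6 below (0.0896%). The members Per2, Dbp and Tef are 3 of those 10, and Arntl is 1 of those 7. The others above were Gadd45g, Arih1, Wfdc12, Prp2, Tspan4, Tyk2 and Ccr6, and the others below were Colq, Rundc3a, Rnf220, St6gal1, Tshr and Cxcl5, all named after their values were seen. The median log2 difference was 0.69 over the 10 member probe sets and -0.04 over all tested, and the median size of the difference regardless of sign was 0.94 and 0.20. The members were proposed with these values known, so nothing is read from their larger medians or from their share of the gaps. In limma with Benjamini-Hochberg adjustment, none of the 7811 probe sets was called for title number 6 against 18 and 48, in either direction (0%), and so no member was. Without IL-13 6, 10 probe sets were called, but number 6 is then the single array saline 6, which stood apart by its salivary gland markers, and it is assumed to vary like the later arrays, which alone give the spread. With all arrays kept, limma at an unadjusted p under 0.05 gave 266 higher (3.41%) and 389 lower (4.98%) of all tested.

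Some markers of other tissues also divided the arrays by title number. Over all 7811 tested probe sets 11.0% lay above and 15.8% below in this way, so nothing is read from the count of such markers. The skeletal muscle markers Acta1 (21715 and 26556 against 11569 to 17742) and Myh4 (17953 and 18668 against 10039 to 12614) were higher on number 6, as 2 of 4 in that list, whose sum was 66086 and 74604 on number 6 and 49933 to 54719 later. Of the thyroid markers Tg was higher on number 6 (23536 and 25516 against 13170 to 18348) and Tshr, the thyrotropin receptor, was lower (41.09 and 69.95 against 287.0 to 378.9), 2 of the 2 on the array. Higher as well were Cidec, 1 of 3 fat markers on the array, Sln, 1 of 5 atrial markers, and Scgb1a1, 1 of 5 lung markers. Sln was dim and read 150.8 on saline 6 against 145.9 on saline 48, exceeding 210 on IL-13 6 alone. The value of Tshr on saline 6 lay below the floor of 55.3. No marker of the 7 salivary gland or 7 thymocyte and T cell genes divided the arrays in this way, and no defining marker read 0. The part of these tissues in the clock gene values was not tested.

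The arrays of numbers 6 and 48 allow the same comparison within each treatment, by 1 array against 1. With saline, the 6 over 48 ratio was 3.03 for Per2, 2.34 for Dbp, 4.44 for Tef, 2.26 for Per1 and 0.337 for Arntl. With IL-13 it was 4.19 for Per2, 4.16 for Dbp, 2.33 for Tef, 2.23 for Per1 and 0.271 for Arntl. All 10 genes had the same direction in both treatments. For the 7 members above and the 2 below on number 6, this restates the division already described, on the same arrays, and is no replication of it. For Per3, Cry1 and Nr1d2 these ratios lay between 1.26 and 1.72. For Clock the ratio was 0.422 with saline and 0.795 with IL-13, and for Nr1d1 it was 0.581 and 0.847. Sizes thus differed between treatments for Dbp and Tef, in opposite ways, and single arrays give no test of this.

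**Figure D3:**
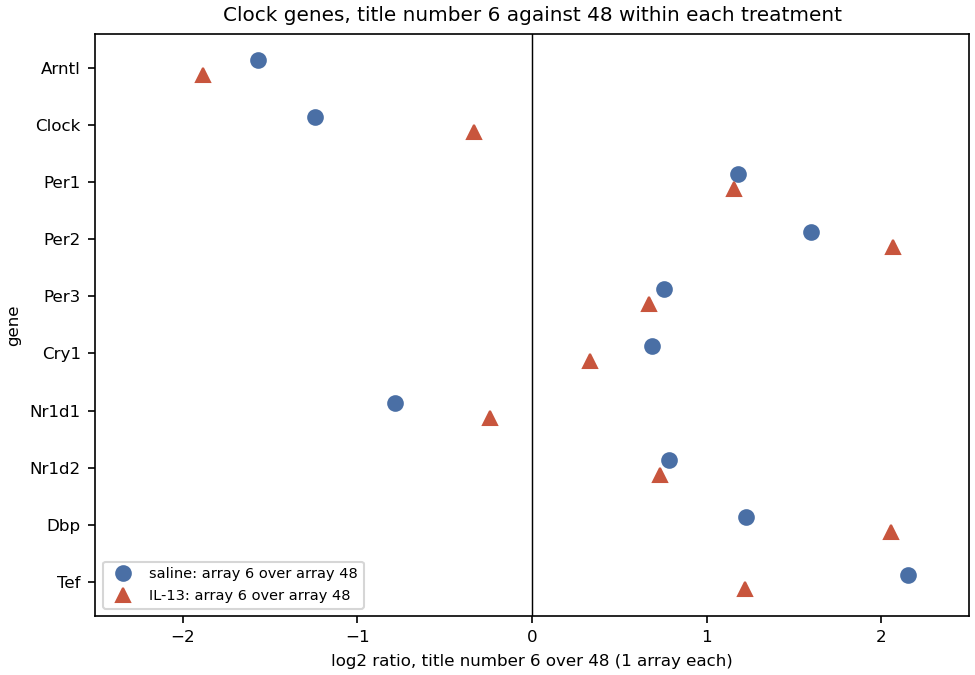
Log2 ratio of the array of title number 6 over that of number 48 for each of 10 clock genes, with circles for saline and triangles for IL-13 (1 array over 1 array each). Every gene has both marks on the same side of 0, with Arntl, Clock and Nr1d1 to the left.

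The array IL-13 18 resembled IL-13 48 and not IL-13 6 in most members. Its ratio to IL-13 48 was 1.06 for Arntl, 1.00 for Tef, 1.03 for Cry1, 0.950 for Nr1d2 and 1.14 for Per3. It was further away for Per1 (1.33), Dbp (1.40) and Per2 (1.23), which were still lower on IL-13 48. Against IL-13 18, IL-13 6 was 3.40-fold higher for Per2, 2.96-fold for Dbp and 2.33-fold for Tef, and IL-13 18 was 3.91-fold higher than IL-13 6 for Arntl. Clock and Nr1d1 were nearer on IL-13 18 to IL-13 6 (IL-13 6 over 18 was 0.900 and 1.03) than to IL-13 48 (18 over 48 was 0.883 and 0.823). Title number 18 has no saline array, so treatment and number cannot be told apart for it.

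Treatment divided none of the members. The 3 IL-13 arrays and the 2 saline arrays overlapped for all 10 probe sets, where 14.7% of all tested probe sets had all IL-13 arrays above and 11.0% had all below. For the 7 members above and the 2 below on number 6, this overlap was fixed by that division. Each treatment holds arrays of both sides, so a gene divided by number cannot also be divided by treatment. The overlap of these members thus says nothing about treatment. Log2 differences (IL-13 minus saline) ran from -0.66 for Per1 to 0.17 for Clock, with a median of -0.16 against 0.04 over all tested probe sets. Number 6 is 1 of 2 saline arrays but 1 of 3 IL-13 arrays, so a difference by number also enters these values and their median. Within numbers 6 and 48 alone, Per2 went from -0.56 to -0.32, Arntl from 0.15 to -0.19 and Tef from -0.14 to 0.06. Clock and Nr1d1, lower on average on number 6 like Arntl, moved slightly upward, to 0.18 and -0.12. The median size regardless of sign was 0.17 for the members and 0.20 for all tested. In limma no member was called, while 1 probe set of all tested was called higher (0.0128%) and 3 lower (0.0384%). Treatment was the only term of this fit, so a difference by number counted as spread within a treatment. That SD was 1.11 with saline and 1.11 with IL-13 for Arntl, and 1.13 and 1.12 for Per2. For members divided by number, the lack of a call thus says little about treatment. Leaving out any 1 of the IL-13 arrays left 0 called, leaving out saline 6 left 1, and without saline 48 there were 13. With all arrays kept, the shares at an unadjusted limma p under 0.05 were 5.27% higher and 3.98% lower. For 8 of the 10 genes the sign of the difference turned when an array was left out or another setting used. For Per1, which kept its sign, the difference was -0.07 without saline 6 and -1.25 without saline 48. For Clock it was -0.45 and 0.80 without the same arrays. For Dbp the difference of -0.59 was 0.02 without saline 6 and -1.20 without saline 48. For Tef it was -0.14, and 0.93 and -1.22 without them. Each saline array holds a different title number, so leaving one out also leaves a single number on the saline side.

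**Figure D4:**
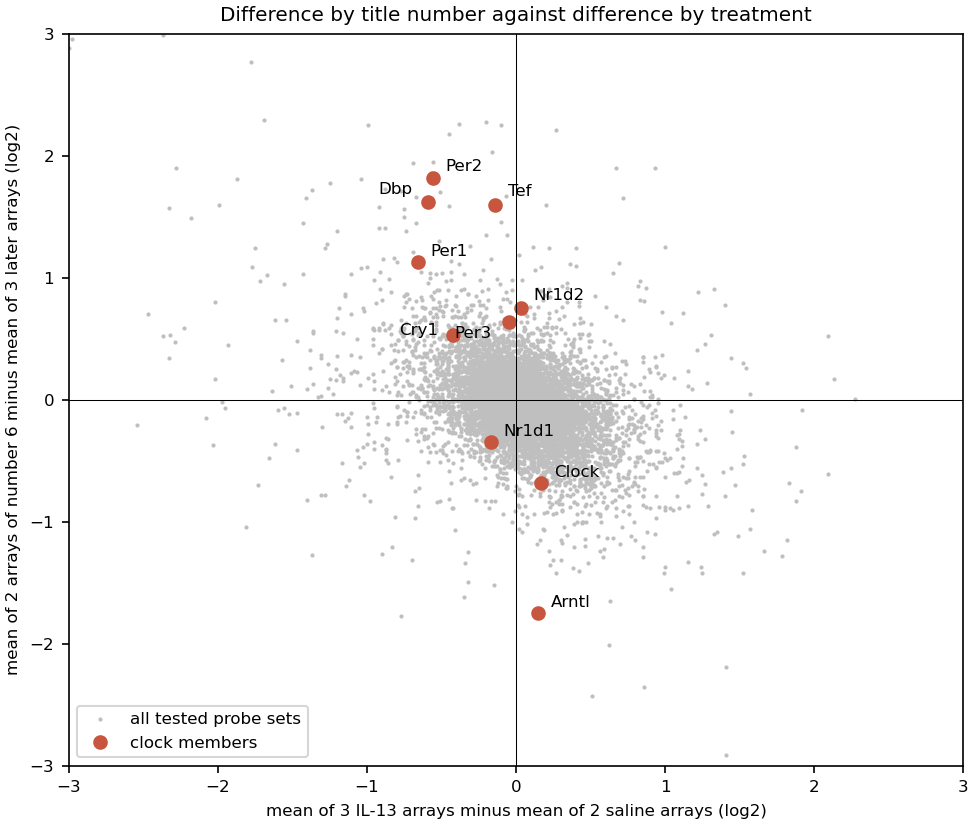
Difference by title number (vertical axis, mean of 2 arrays of number 6 minus mean of 3 later arrays, log2) against difference by treatment (horizontal axis, mean of 3 IL-13 minus mean of 2 saline arrays, log2) for all tested probe sets (grey) and the 10 clock members (red). The members spread along the vertical axis from -1.75 to 1.82 and stay between -0.66 and 0.17 on the horizontal one; 6 grey points lie outside the range of 3 log2 units, and both differences come from the same 5 arrays.

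Within a title number, IL-13 and saline can be set side by side as single arrays. Per1 was lower with IL-13 in both, 0.654 times the saline value at 6 and 0.662 times at 48, log2 differences of -0.61 and -0.59. Cry1 was 0.684 times at 6 and 0.870 times at 48. Per2 was 0.945 times at 6 and 0.683 times at 48, and Arntl 0.783 and 0.974 times. Nr1d2 was slightly higher in both (1.11 and 1.15 times). Per3 was nearly equal in both pairs (0.971 and 1.03 times). Dbp was equal at 6 (1.00 times) and lower at 48 (0.564 times), and Tef was lower at 6 (0.756 times) and higher at 48 (1.44 times). With 1 array in each place these ratios have no replicate check.

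The genes most like Dbp and Arntl were found by the root mean square difference of log2 values, each centred on its mean over the 5 arrays, among 5982 other genes. Nearest to Dbp was the member Per2, at 0.14. Next were Sult1a1, a phenol sulfotransferase, and Tspan4, a tetraspanin, at 0.20 each. Sult1a1 read 442.3 and 426.1 on saline 6 and IL-13 6 and 251.1, 142.3 and 131.1 on saline 48, IL-13 18 and IL-13 48. Tspan4 read 1542 and 1317, then 514.7, 479.1 and 435.7, with no overlap. Per1 was the gene in place 10 (0.32), Tef in place 28 (0.45), Nr1d2 in place 76, Per3 in place 95 and Cry1 in place 163. Arntl was in place 5957, close to the far end.

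Nearest to Arntl were St6gal1, a sialyltransferase, and Sult1d1, a sulfotransferase, at 0.28 each, and Elf1, an ETS transcription factor, at 0.30. St6gal1 read 78.25 and 104.3 on saline 6 and IL-13 6 and 243.4, 310.2 and 304.0 on saline 48, IL-13 18 and IL-13 48. Sult1d1 read 342.5 and 204.8, then 1050, 635.1 and 803.7. For Elf1, the value on IL-13 6 (29.96) lay below the floor of 55.3, the lowest value used, and was set to it. Clock was the nearest member to Arntl (0.63, place 243), followed by Nr1d1 (0.74, place 987). Likeness over 5 arrays whose tissue markers differ describes these arrays and says nothing of shared control. The members were proposed with these values known, so nothing is read from their places relative to Dbp or Arntl.

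The wider clock was read from 28 other genes, such as kinases, ubiquitin ligase parts, competing factors and output genes. Of these 18 had a probe set and 14 were tested, each by its brightest probe set. Both arrays of number 6 lay above the later 3 for 5 of them (Bhlhe40, Wee1, Usp2, Nampt and Klf9) and below for 2 (Fbxw11 and Klf10) of the 14, beside 11.0% above and 15.8% below over all tested probe sets. This list too was chosen with earlier results of these data known, so nothing is read from its counts. The nearest arrays across the division were 1.02-fold apart for Klf10, 1.03-fold for Bhlhe40, 1.06-fold for Klf9 and 1.14-fold for Wee1 and Fbxw11. They were 1.36-fold apart for Usp2 and 1.43-fold for Nampt. None was called by limma for title number (lowest adjusted p 0.505) or for treatment (lowest adjusted p 0.531). In the treatment fit a difference by number again counted as spread. Their median log2 difference by title number was 0.08 and its median size 0.20, the same size as over all tested probe sets.

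Those with the widest range were Nampt, Csnk1a1, Usp2, Wee1, Cry2 and Klf9. Nampt, the enzyme that makes the NAD precursor nicotinamide mononucleotide and a known clock output, read 1418 and 1557 on saline 6 and IL-13 6 and 992.6, 549.0 and 694.9 on saline 48, IL-13 18 and IL-13 48, a log2 difference of 1.04 (SE 0.27, limma adjusted p 0.526). Usp2, a deubiquitinase whose transcript cycles in many mouse tissues, differed by 0.77 (SE 0.19) on its brightest probe set and by 1.50 (SE 0.30) on the other, each with an adjusted p of 0.505. The second probe set read 3048 and 2971 on number 6 and 1598, 846.0 and 898.6 later. Wee1, a cell cycle kinase with an E-box driven promoter, differed by 0.50 (SE 0.20, adjusted p 0.591) and Klf9, a Krüppel-like factor induced by glucocorticoids, by 0.35 (SE 0.21, adjusted p 0.665). The dimmer probe set of Klf9, 93527_at, differed by 0.62 (SE 0.24, limma adjusted p 0.580).

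Cry2, the second cryptochrome, did not follow Cry1. It read 287.5 and 402.1 on number 6 and 230.6, 319.1 and 383.7 later, with all IL-13 arrays above both saline arrays. Of the 14 other clock genes tested, 2 lay above in this way (Cry2 and Csnk1a1), 1 lay below (Rora) and 11 overlapped, beside 14.7% above and 11.0% below over all tested probe sets. The 7 thymocyte and T cell markers also divided by treatment in their sum, which was 11271 on saline 6 and 16483 on saline 48, against 3624, 7489 and 2759 with IL-13 (numbers 6, 18 and 48), and their part in these values was not tested. The log2 difference of Cry2 by treatment was 0.51 (SE 0.20, limma adjusted p 0.531). Csnk1a1, a casein kinase that phosphorylates PER proteins, read 2861 on saline 6 and between 5386 and 6051 elsewhere on probe set 93076_at, and its other probe set 99650_at did not show this, so that its wide range rests on 1 array and 1 probe set. The kinases Csnk1d and Csnk1e and the ligase part Btrc differed by -0.04, 0.01 and -0.07 by title number on their brightest probe sets. The other probe set of Btrc, 160790_s_at, differed by -0.43 (SE 0.27, limma adjusted p 0.681). For Csnk1d, the probe set 97263_s_at differed by 0.00 (SE 0.24) and the dim 162001_f_at by -0.50 (SE 0.21, limma adjusted p 0.592). The difference of the dim probe set from the brighter ones was not tested. Probe sets of Npas2, a paralog of Clock, and of Nfil3, a repressor at the D-box, did not pass the filter.

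**Figure D5:**
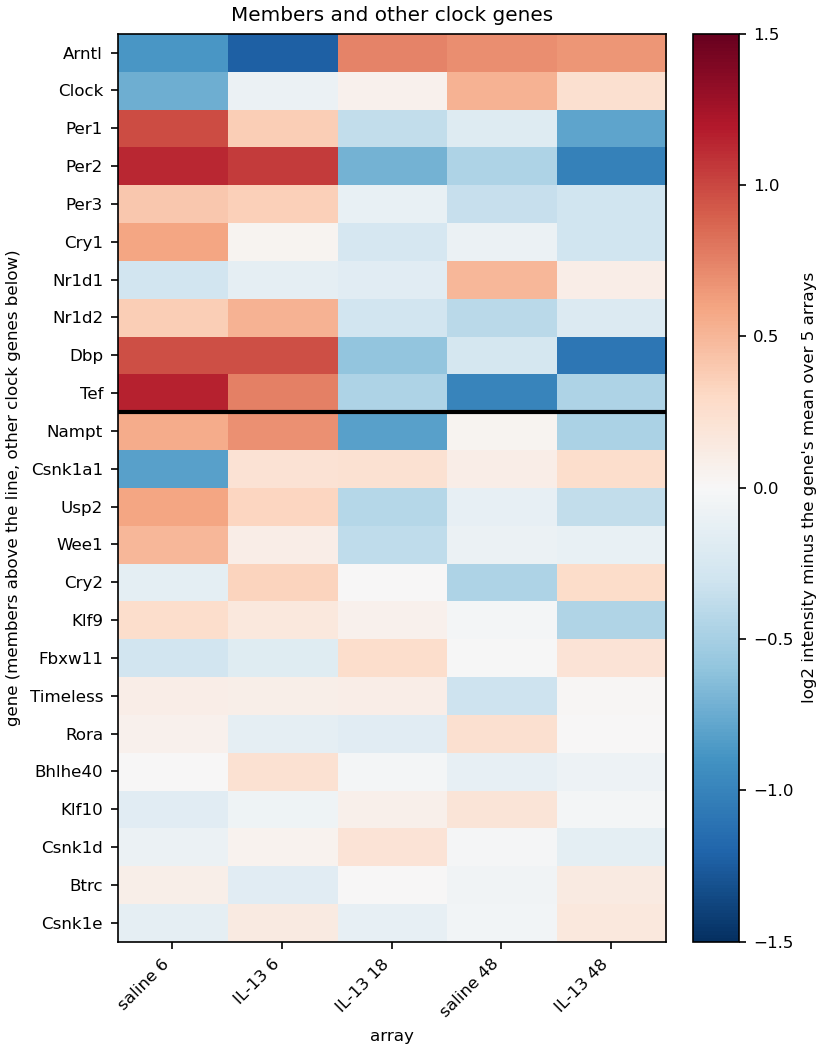
Log2 intensity minus each gene's mean over the 5 arrays, for the 10 members (above the line) and the 14 other clock genes tested (below it, ordered by range), with columns ordered by title number. The median range over the 5 arrays was 1.51 for members, 0.49 for the other clock genes and 0.61 for all tested probe sets. The members were proposed with these values known, so nothing is read from their wider range.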

How the data were processed

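RNA labelled as mouse lung was measured on 5 arrays, 2 after saline and 3 after IL-13. The values the authors deposited are intensity on a linear scale in a table of 12488 probe sets. Software, background correction and genome build were not given in the sources used here. A 2% trimmed mean of these values is nearly the same on all arrays (800.39 to 800.47). Control probe sets (66) were left out. Gene symbols came from the platform annotation, 10833 probe sets having exactly 1, of which 10817 were updated through RefSeq gene numbers.

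Each array was scaled to the same 2% trimmed mean, a floor was set at the 20th percentile of all values (55.3), and values were converted to log2. A probe set was tested if it exceeded the 40th percentile of all values (210) on 2 or more arrays, as 7811 did, with lmFit and eBayes of limma 3.58.1 (R 4.3.3), two-sided, Benjamini-Hochberg threshold 0.05. One fit had treatment as its only term, another had title number 6 against 18 and 48 (3 residual degrees of freedom in each). The fits were tested on simulated data. Fold is between log2 means. Intensities are printed as deposited. The number of arrays limits the precision.

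Members and lists were chosen with earlier results of these data known. Named genes are all members, other clock genes that were called or among the 6 of widest range, and the 3 genes most like Dbp and Arntl, and any further name was added after its values were seen. Other settings tried were quantile normalization, unscaled values, other floors and filters, trend and robust settings, an added block and leaving out each array. Figures used matplotlib 3.10.9.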

Additional observations from a re-analysis of the deposited data

Results flagged for a closer look

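In 5 member genes IL-13 and saline differed in opposite directions at title numbers 6 and 48, with 1 array in each place. The change between the numbers was not tested. The share of all tested probe sets with opposite directions was not computed, so nothing is read from the count of 5. For Clock the log2 difference (IL-13 minus saline) was 0.63 at 6 and -0.28 at 48, which are 0.91 apart. For Tef it was -0.40 at 6 and 0.53 at 48, a change of -0.93. For Dbp it was 0.01 at 6 and -0.83 at 48, or 0.83 apart. For Nr1d1 it was 0.15 and -0.39, or 0.54 apart. For Per3 it was -0.04 and 0.05, a change of -0.09. The values of Dbp and Per3 at 6, and of Per3 at 48, are close to 0.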

How the results depend on the processing

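The difference of the members between title number 6 and the later numbers kept its sign in all 100 values under alternatives (10 genes). Of these values, 5 moved by more than the spread between arrays. For the 7 members above and the 2 below on number 6, the sides do not overlap. Their sign could not turn when an array was left out or the floor was changed, so most of these values were fixed in advance. Leaving out 1 array gave -1.92 to -1.57 for Arntl, 1.68 to 1.96 for Per2, 1.40 to 1.81 for Dbp, 1.39 to 1.80 for Tef, 0.82 to 1.43 for Per1, 0.59 to 0.71 for Per3, 0.67 to 0.82 for Nr1d2 and -0.51 to -0.18 for Nr1d1. The difference by treatment changed sign in 18 of 100 values. Probe sets called for IL-13 against saline were 4 of 7811, with 0 when the floor was the 10th or the 40th percentile, 0 without a filter, 0 with trend and robust settings and 1 with a filter at the 60th percentile. With title number as a replicate block there were 0 (lowest limma adjusted p 0.106). That fit compared treatments within numbers 6 and 48 alone, without IL-13 18, and had 1 residual degree of freedom. Leaving out IL-13 18 without a block also gave 0 called, so the 0 cannot be put down to the block. Changes from 6 to 48 in saline and in IL-13 had a correlation of 0.13 across probe sets, and the numbers are not taken as pairing the arrays. Leaving out 1 array gave 0 to 13 called, with 0 without any of the IL-13 arrays, 1 without saline 6 and 13 without saline 48. For title number 6 against later numbers none was called, and leaving out 1 array gave 0 to 10, the 10 without IL-13 6, where saline 6 alone stands for number 6. Without a saline array the other one likewise stands alone, and a lone array is assumed to vary like the other group. No other clock gene was called under any of these settings. The cause of these changes was not tested.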
